A study of Mus musculus with 15 samples.

Results

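The lens of the mouse embryo at E10.5 was compared with the whole embryo by RNA sequencing, using 3 libraries of each out of 15 in the series. The E10.5 lens samples were micro-dissected from wild type C57BL/6NTac embryos, with 50 lenses pooled in each of 3 biological replicates. The whole embryo samples came from wild type embryos of the same strain and are labelled as E10.5-12.5, with 3 biological replicates. The labels say that whole embryos of 3 ages were taken, but not whether a library holds 1 age or a mixture, so tissue and age cannot be told apart in this comparison. They do not say either whether the eyes were left in the whole embryo samples. The comparison took every gene in the deposited table: 14615 symbols, of which 14532 were tested. It addresses which genes are enriched in the early lens, the purpose that the series states for its whole embryo controls.

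The lens arises from surface ectoderm that lies against the optic vesicle, the outgrowth of the brain that becomes the retina. This ectoderm thickens into a placode, folds inwards as a pit and then pinches off as a vesicle, while the optic vesicle folds into the optic cup around it. Pax6, Six3, Sox2 and Maf family factors act early in this lineage, BMP and FGF signals from the surroundings maintain it, and the cells later fill with crystallins, the soluble proteins that make the lens refract.

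Values are FPKM, fragment counts scaled to transcript length and to the mapped fragments of the library, summed over the transcripts of a gene, so they can be compared between genes as levels per length. Library values are given in the order of replicates 1, 2 and 3. Fold changes are differences of log2(FPKM + 1), E10.5 lens minus whole embryo, with the standard error of the fitted difference. They understate the change of genes near 0. A gene was called at an adjusted p under 0.05 (limma, Benjamini-Hochberg over all genes tested). No depth or read count is given for these libraries, so no interval from counting error can be set beside a value. In bulk tissue, fewer cells of a type and less RNA per cell cannot be told apart.

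Across all genes, 3568 of 14532 (24.6%) were called higher in the E10.5 lens and 4527 (31.2%) lower, 55.7% in all. Counts for the gene lists below are to be read beside these shares. With a 2-fold minimum, 942 genes (6.48%) were higher and 1979 (13.6%) lower. The median log2 fold change over all genes was -0.03. Lens libraries correlated with each other at r from 0.9844 to 0.9871 over genes, whole embryo libraries from 0.9926 to 0.9938, and libraries of different groups from 0.8723 to 0.8822. The balance of calls depended on the scaling: higher genes made up 32.2% of the 2-fold calls as deposited, 36.8% with library medians made equal, 29.9% when libraries were rescaled to equal totals without their crystallins, and 49.0% under quantile normalization. Under the last of these, the median over genes shifted by 0.103 (log2).

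**Figure D1:**
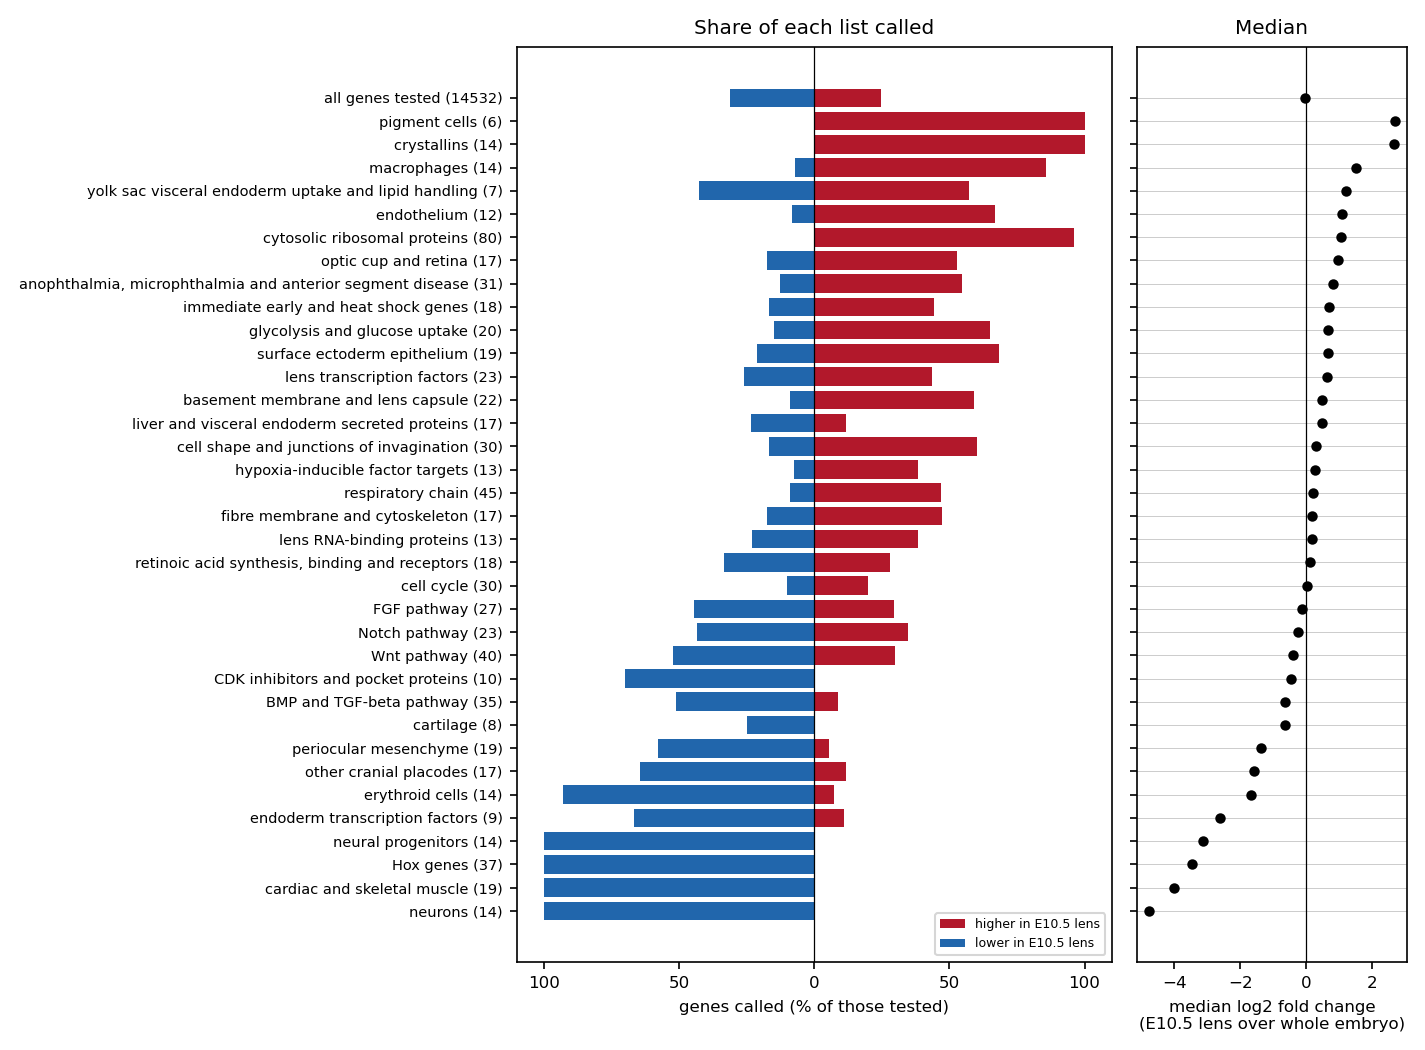
Share of the tested genes of each list called higher (red, to the right) or lower (blue, to the left) in E10.5 lens at an adjusted p under 0.05, and the median log2 fold change of the list, with the number of genes tested in brackets. The top bar is all 14532 genes tested, with 24.6% higher and 31.2% lower. The 14 crystallins and 6 pigment cell genes tested are called higher without exception, and the neuronal, muscle and Hox genes tested lower without exception. Genes under 1 FPKM in every lens library of the series could enter only through the whole embryo libraries. Genes under 1 FPKM in every whole embryo library could enter only through lens libraries of the series.

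The transcription factors of the lens lineage fell into 3 sets. Of 23 tested, 10 were higher in E10.5 lens, 6 lower and 7 were not called, with a median of 0.64 against -0.03 for all genes. The forkhead factor Foxe3 (chr4:114925147-114926013), which keeps lens epithelium proliferating, stood at 321, 315 and 269 FPKM in the lens libraries and 0.48, 0.44 and 0.27 in whole embryo. No other factor of the list showed so large a log2 fold change (7.76 ± 0.13, adjusted p = 7.49e-15), although it was 3.85 when assembled transcript variants were left out. Pitx3, a homeobox factor needed for lens vesicle growth, read 76.3, 61.5 and 66.1 against 0.26, 0.66 and 0.82 (5.46 ± 0.14, adjusted p = 2.05e-13). Both genes were thus under 1 FPKM in every whole embryo library, far below the lens libraries.

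Pax6 (chr2:105668900-105697364), the paired-box factor at the top of the eye programme, gave 455, 450.2 and 444 FPKM in lens and 30.2, 28.8 and 30.7 in whole embryo. Its libraries were close to each other within each group, and the fold change was 3.87 ± 0.06 (adjusted p = 2.59e-15). Six3, a homeobox partner of Pax6 in the lens, was at 125, 129.9 and 139 against 6.48, 5.37 and 5.45 (4.29 ± 0.09). The leucine-zipper factor Maf, an activator of crystallin genes, was at 218, 169.6 and 185 against 15.6, 14.1 and 15.5 (3.57 ± 0.14). Prox1, needed for fibre cells to elongate, was at 159, 125 and 121 against 20.5, 20.6 and 19.9 (2.66 ± 0.13; 4.07 with reference transcripts alone). Mab21l1 (2.62), Tfap2a (1.98, an ectodermal AP-2 factor; 1.16 with reference transcripts alone), Gata3 (1.40) and the small Maf protein gene Mafg (0.85) were also called higher.

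Sox2, which acts with Pax6 on crystallin enhancers, did not differ by the test: 85.7, 90.4 and 97.8 FPKM in lens and 87.1, 71.7 and 70.8 in whole embryo, with overlapping libraries (0.26 ± 0.16, adjusted p = 0.194). It was called higher with only the 2 groups in the fit (0.26, adjusted p = 0.0497), and was at -0.42 (adjusted p = 0.338) with reference transcripts alone. Hsf4, the heat shock factor of maturing fibres, was near 0 in all 6 libraries (at most 0.22). Sox1, Eya1, Lhx2 (0.64) and Mab21l2 (0.90) were not called either, with Eya1 called higher (1.32) with reference transcripts alone, and Lhx2 (adjusted p = 0.0495) and Mab21l2 (adjusted p = 0.0123) called higher with only the 2 groups in the fit. The factors called lower include ones with wide roles elsewhere in the embryo: Sox11 (151, 151 and 163 against 478, 453 and 459, -1.58 ± 0.19), Meis2 (-1.28), Mafk (-0.65), Meis1 (-0.29) and Zeb2 (-0.28). The Meis1 call was lost without lens replicate 1 (-0.20, adjusted p = 0.152) and without any 1 of the whole embryo libraries, and the Zeb2 call with library medians made equal (-0.20).

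**Figure D2:**
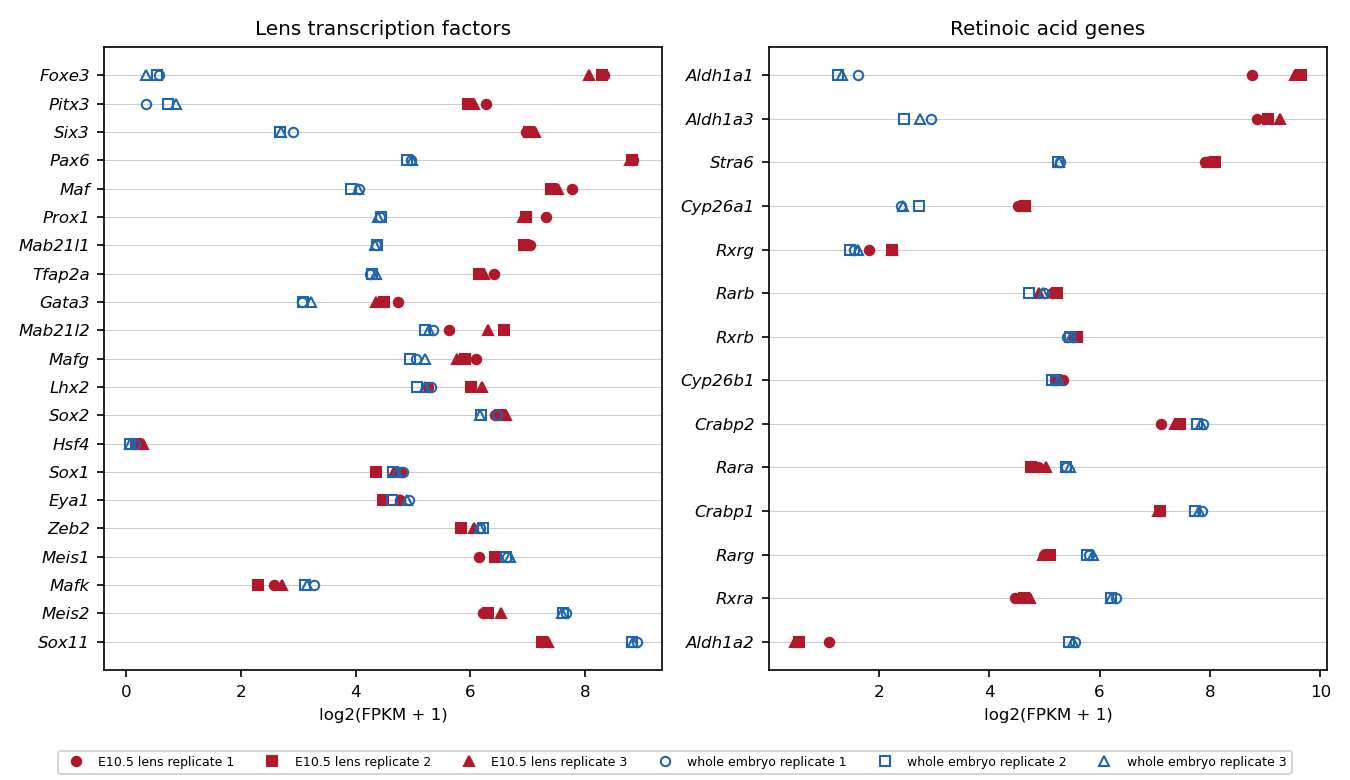
Level in each library of the lens transcription factors (left) and retinoic acid genes (right) that the text names, as log2(FPKM + 1), with filled red symbols for E10.5 lens, open blue symbols for whole embryo and a shape for each replicate, genes ordered by fold change. Foxe3, Pitx3, Six3 and Pax6 in lens lie far to the right of whole embryo, Sox2 overlaps it, and among retinoic acid genes Aldh1a1 and Aldh1a3 lie at the top and Aldh1a2 at the bottom.

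Crystallin transcripts were present in the E10.5 lens and made up a small share of its FPKM. Of 16 crystallin genes listed, the 14 tested were called higher, with a median log2 fold change of 2.68. Summed over the 16, they made up 0.067%, 0.0463% and 0.0493% of the FPKM of the lens libraries and 0.00103%, 0.00119% and 0.00106% of whole embryo. Of the 14 tested, 5 were listed at 0 in the 3 whole embryo libraries. A gene under 1 FPKM in every whole embryo library was tested only if at least 3 lens libraries of the series reached 1 FPKM. That filter can raise the share called higher. Crybb3 (chr5:113075839-113081584), a beta-crystallin, stood at 153, 96.8 and 103 FPKM in lens and 0.38, 0.53 and 0.35 in whole embryo (6.35 ± 0.20, adjusted p = 1.5e-12). Cryab, the small heat shock protein alphaB-crystallin, stood at 104.55, 81.3 and 83.7 against 6.93, 7.42 and 6.77 (3.49 ± 0.14; 0.93 with reference transcripts alone). Cryaa, alphaA-crystallin (chr17:31677807-31681733), read 104, 63.7 and 71.7 in lens and was listed at 0 in the 3 whole embryo libraries. Cryba1 read 23.95, 20.01 and 22.45 in lens and 0.11, 0.28 and 0.23 in whole embryo. Neither of these 2 was tested, because each is listed at 0 in a later lens library beside a replicate of at least 50 FPKM.

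Among the gamma-crystallins, Cryge was the highest, at 38.0, 36.2 and 34.9 FPKM in lens and 0.04 in each whole embryo library (5.17 ± 0.20). Crygc stood at 14.4, 13.9 and 11.3, Cryga at 7.69, 9.7 and 11.2 and Crygd at 5.18, 5.11 and 5.95, each listed at 0 in the whole embryo libraries. The gamma-crystallin genes of chromosome 1 are close copies of each other, so how reads divide among them is uncertain. Crybb1 at 5.96, 6.81 and 7.86, Cryba4 at 3.43, 3.6 and 4.1, Cryba2 at 3.94, 3.03 and 3.81 and Crybb2 at 1.73, 1.45 and 1.17 were lower than Crybb3 by an order of magnitude or more. Crybb2 was no longer called with reference transcripts alone (0.33). Levels of alphaA-, alphaB- and betaB3-crystallin were thus the highest of the family at this stage, and lens replicate 1 was the highest library for each of the 3.

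Crystallin promoters are bound by large Maf proteins, whose recognition element begins with TGCTGA. Searched on both strands over the 250 bases before the RefSeq start (build GRCm38.p6), this motif or its complement TCAGCA occurred in 10 of 15 crystallin promoters and in 16.1% of 32851 promoters of all genes. These are descriptions of letters, not of binding. The promoters below are those of a beta-crystallin with 3 matches, of the highest beta-crystallin, with 1 match, and of the highest gamma-crystallin, with none; capitals mark the matches, the strand is that of the gene, and each run is written 5′ to 3′. Cryba4 lies at chr5:112252519-112252768 (minus strand), Crybb3 at chr5:113081585-113081834 (minus strand) and Cryge at chr1:65051164-65051413 (minus strand).
Cryba4: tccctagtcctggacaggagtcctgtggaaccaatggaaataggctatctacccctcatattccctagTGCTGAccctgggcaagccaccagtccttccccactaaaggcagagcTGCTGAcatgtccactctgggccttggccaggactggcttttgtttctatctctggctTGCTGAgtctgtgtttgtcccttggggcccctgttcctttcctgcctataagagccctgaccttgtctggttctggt
Crybb3: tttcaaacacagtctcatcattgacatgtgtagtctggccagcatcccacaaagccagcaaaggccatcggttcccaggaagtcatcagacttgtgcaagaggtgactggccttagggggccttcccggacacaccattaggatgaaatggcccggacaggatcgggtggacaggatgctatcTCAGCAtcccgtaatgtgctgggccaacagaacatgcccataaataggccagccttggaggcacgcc
Cryge: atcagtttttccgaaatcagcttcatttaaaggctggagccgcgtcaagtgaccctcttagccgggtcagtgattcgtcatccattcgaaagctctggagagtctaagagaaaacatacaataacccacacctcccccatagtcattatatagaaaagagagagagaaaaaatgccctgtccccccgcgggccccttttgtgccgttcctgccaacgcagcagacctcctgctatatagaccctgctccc
The order of the matches was not the order of the levels: Cryba4, with 3 matches, was at 3.43 to 4.1 FPKM in lens, while Crybb3 was at 96.8 to 153 and Cryge, without a match, at 34.9 to 38.0.

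Genes of the later fibre cell were only partly present. Of 17 fibre membrane and cytoskeleton genes, 8 were higher and 3 lower, with a median of 0.19. Mip, the water channel of fibre membranes, was at 7.88, 8.09 and 7.52 FPKM in lens and 0.15, 0.32 and 0.35 in whole embryo (2.80 ± 0.19), and the beaded filament gene Bfsp2 at 2.24, 3.84 and 3.59 against 0.17, 0.27 and 0.12 (1.81 ± 0.20). Gja3, connexin 46, was at 11.4, 8.18 and 6.45 against 1.08, 0.83 and 1 (2.27 ± 0.17), a call that was lost with reference transcripts alone (0.49). The actin-capping gene Tmod1 was lower (-2.16 ± 0.25). Of 13 genes for RNA-binding proteins of the lens, 5 were higher and 3 lower (1 lower without lens replicate 1 or 2 or any 1 of the whole embryo libraries). Tdrd7, a granule protein linked to cataract, was at 28.6, 29.3 and 32.0 against 9.16, 9.7 and 8.07 (1.64 ± 0.18), and Lin28a, which blocks let-7 maturation, at 125, 129.9 and 146 against 46.8, 45.5 and 39.4 (1.58 ± 0.17). Rbm24, a regulator of messenger stability, was also higher (1.30).

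A few genes of other kinds were among those with the highest fold changes by the selection rule. The ion channel gene Trpm3, whose locus also encodes miR-204, was at 328, 253 and 239 FPKM in lens and 2.66, 4.71 and 3.56 in whole embryo (5.89 ± 0.16; 4.78 with reference transcripts alone). The amino acid transporter gene Slc38a8 was at 38.8, 84.1 and 61.3 against 0.04, 0.1 and 0.06 (5.80 ± 0.44; 4.63 with reference transcripts alone). Cx3cl1, a membrane-bound chemokine, was at 224, 203 and 201 against 4.21, 4.15 and 4.44 (5.32 ± 0.09, adjusted p = 8.5e-15). Six3os1, the antisense transcript beside Six3, was at 482, 374 and 364 against 10.2, 8.07 and 10.3 (5.27 ± 0.11). The counting is not stated to use strand, so reads of Six3os1 and Six3 may not be separable where they overlap.

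Retinoic acid, a vitamin A derivative, is made by retinaldehyde dehydrogenases, degraded by Cyp26 enzymes and sensed by RAR and RXR receptors. Of 18 genes of this system, 5 were higher, 6 lower and 7 not called, with a median of 0.11. The shares higher (27.8%) and lower (33.3%) were near those of all genes (24.6% and 31.2%). The 3 dehydrogenases went in opposite directions. Aldh1a1 (chr19:20492715-20643465) had the largest log2 fold change of the genes named by the selection rule: 432, 806 and 740.4 FPKM in lens against 2.09, 1.4 and 1.51 in whole embryo (7.91 ± 0.18, adjusted p = 6e-14). Aldh1a3 (chr7:66390890-66427517) was at 463, 527 and 618 against 6.68, 4.51 and 5.72 (6.34 ± 0.46). Aldh1a2, the enzyme of trunk mesoderm, was at 1.14, 0.47 and 0.39 against 46.1, 42.7 and 45.1 (-4.80 ± 0.24, adjusted p = 3.82e-10). Lens replicate 1 was the lowest of the 3 for Aldh1a1 and Aldh1a3. Aldh1a7, a close copy of Aldh1a1, was at 140.0, 193 and 197 against 1.12, 1.2 and 1.78 (6.22); reads shared between the copies make its own level uncertain.

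The gene for vitamin A uptake rose as well. Stra6, the cell surface receptor that takes up retinol, was at 238, 272 and 249 FPKM against 38.0, 37.2 and 37.6 (2.72 ± 0.12). The degrading enzyme Cyp26a1 was at 21.9, 24.0 and 24.1 against 4.28, 5.62 and 4.44 (2.08 ± 0.27), whereas Cyp26b1 overlapped between groups (39.5, 36.1 and 37.1 against 35.5, 34.3 and 37.4). Of the receptors, Rxra fell by 1.63 on the log2 scale (21.1, 23.9 and 25.7 against 78.0, 73.1 and 72.9) and Rara fell by 0.52, while Rarb and Rxrb were not called. Rxrg was at 2.52, 3.72 and 3.71 against 1.94, 1.8 and 2.09 (0.54 ± 0.26) and was not called (adjusted p = 0.0909), but was called higher under quantile normalization (1.14, adjusted p = 0.00137) and with only the 2 groups in the fit (adjusted p = 0.0171). The calls of Rarg (-0.80) and Crabp2 (-0.51) were each lost without lens replicate 1 (adjusted p = 0.0755 and 0.114) and without any 1 of the whole embryo libraries. That of Rarg was lost without lens replicate 2 or 3 as well. The call of Crabp1 (-0.71) was lost with a pseudocount of 0.1.

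Transcripts typical of optic cup and pigment cells were present beside those of lens. Of 17 optic cup and retina genes, 9 were higher and 3 lower, with a median of 0.97. Rax, a homeobox gene of the eye field, was at 13.5, 24.5 and 24.6 FPKM in lens and 0.22, 0.24 and 0.23 in whole embryo (4.10 ± 0.33). Six6, another homeobox gene of the eye field, was at 22.9, 43.7 and 42.8 against 1.01, 0.88 and 1.2 (4.15 ± 0.37). Summed over the list, optic cup genes gave 353.7, 486.5 and 512.7 FPKM in the lens libraries and 168.4 to 185.2 in whole embryo. Atoh7, which marks the first retinal neurons, was at 0 in every lens library. Of 11 pigment cell genes listed, 6 were tested, and these were called higher, with sums of 79.3, 215.7 and 171.6 FPKM against 3.85 to 6.24. Only 4 were called higher without lens replicate 2 or 3 or with only the 2 groups in the fit. Without whole embryo replicate 1 or 3, or with a pseudocount of 0.1, 5 were. Of the 6, 1 was listed at 0 in the 3 whole embryo libraries. A gene under 1 FPKM in every whole embryo library was tested only if at least 3 lens libraries of the series reached 1 FPKM. That filter can raise the share called higher. Pmel, the fibril protein of melanosomes, was at 10.9, 36.4 and 35.6 against 0.74, 1.28 and 1.28 (3.61 ± 0.53), Dct at 6.87, 23.4 and 18.6 against 1.34, 1.48 and 1.27 (2.72 ± 0.54), and Trpm1 at 54.1, 133 and 93.9 against 0.71, 0.55 and 0.88 (5.70 ± 0.33; 4.97 with reference transcripts alone). Tyr, the first enzyme of melanin synthesis, read 0, 3.03 and 3.05 in lens and 0, 0.24 and 0 in whole embryo; its call was lost without lens replicate 2 (0.91) or 3 (0.90) and without whole embryo replicate 1 (1.19) or 3 (1.19), and its fold change was 1.91 without lens replicate 1.

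Lens replicate 1 thus held fewer optic cup and pigment cell transcripts than replicates 2 and 3, and it was also the lowest library for Aldh1a1, Aldh1a3, Mab21l2 and Lhx2. Mab21l2 was at 48.4, 95.7 and 78.8 and Lhx2 at 37.4, 64.0 and 73.0 in lens. The part of optic cup cells in the retinoic acid results was not tested.

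Signalling genes showed mixed directions, and more of them were lower than higher, as over all genes tested (24.6% higher and 31.2% lower). The shares higher and lower were 8.6% and 51.4% for BMP and TGF-beta and 29.6% and 44.4% for FGF. For Wnt they were 30.0% and 52.5%, and for Notch 34.8% and 43.5%. In the BMP and TGF-beta pathway, 3 of 35 genes were higher and 18 lower, with a median of -0.63. The ligand Bmp7, needed for lens induction, was at 55.3, 67.6 and 62.0 FPKM in lens and 36.5, 32.9 and 35.9 in whole embryo (0.79 ± 0.15, adjusted p = 0.000489). The BMP target Id3 was at 199.8, 235 and 229 against 95.5, 90.3 and 99.4 (1.21 ± 0.18). The third call, for the pseudoreceptor Bambi (0.38), was lost without lens replicate 2 (0.34) or 3 (0.30) and without whole embryo replicate 2 (0.40) or 3 (0.30). Bmp4, the ligand of the optic vesicle, was not called (12.3, 16.3 and 25.5 against 26.2, 28.8 and 29.6). The receptor gene Bmpr1a was called lower (-0.64) but higher with reference transcripts alone (1.35), so its direction depends on the transcripts counted. The receptors Bmpr1b (-2.20) and Bmpr2 (-0.96) were lower, as were the targets Id4 (1.97, 1.61 and 2.87 against 48.1, 45.1 and 46.3, -3.93 ± 0.17) and Msx1 (7.14, 6.2 and 6.06 against 50.4, 46.4 and 48.3, -2.73 ± 0.25). Ligands and antagonists of other tissues, Bmp5 (-1.86) and Grem1 (-1.76), were lower too.

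In the FGF pathway 8 of 27 genes were higher and 12 lower, with a median of -0.12. The genes that were higher include feedback targets of ERK signalling: the ETS factors Etv1 (55.0, 45.1 and 48.2 FPKM against 13.9, 13.2 and 13.1, 1.80 ± 0.11) and Etv5 (131, 127 and 123 against 47.6, 45.04 and 45.2, 1.45 ± 0.11), and the inhibitors Spry2 (1.01) and Spred3 (1.004). The receptor Fgfr3 was at 3.11, 6.12 and 6.93 against 44.1, 46.2 and 47.9 (-2.94 ± 0.21), Fgf10, a ligand of mesenchyme, at 0.28, 0.24 and 0.52 against 9.1, 8.54 and 9.12 (-2.89 ± 0.38), and Il17rd, another feedback inhibitor, fell by 1.35. Feedback genes were therefore not uniform in direction.

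Wnt genes gave 12 higher and 21 lower of 40, with a median of -0.40. Secreted antagonists included the pathway's largest rise: Sfrp2 (chr3:83766321-83774316) stood at 962, 1038 and 1057 FPKM in lens against 51.0, 46.1 and 44.0 (4.41 ± 0.19, adjusted p = 5.66e-11). Dkk3 was at 152, 173 and 180.5 against 11.1, 11.3 and 11.2 (3.80 ± 0.15) and Dkk1 was higher too (1.09), whereas the antagonists Frzb (6.51, 3.35 and 3.31 against 34.6, 31.0 and 32.1, -2.69 ± 0.26) and Wif1 (-1.35) were lower. The feedback inhibitor genes Axin2 and Nkd1 and the transcription factor gene Lef1 were called lower: Axin2 at 25.4, 26.7 and 21.3 against 60.5, 64.2 and 60.3 (-1.30 ± 0.11; -2.23 with reference transcripts alone), Nkd1 (-1.30) and Lef1 (-1.07). Ligands went both ways, with Wnt2b (23.2, 46.9 and 33.2 against 8.3, 8.9 and 9.58) and Wnt5b (1.16) higher and Wnt5a (16.7, 14.7 and 16.0 against 72.1, 68.0 and 72.4) and Wnt7b (-1.59) lower; the Wnt2b call was lost with reference transcripts alone (adjusted p = 0.055). The transducer Ctnnb1, beta-catenin, was not called (872, 974 and 916 against 1004, 932 and 976), though it was called lower under quantile normalization (-0.57) and with reference transcripts alone (-0.39).

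For Notch, 8 of 23 genes were higher and 10 lower, with a median of -0.23. Jag1, the ligand that the lens uses for fibre growth, was at 158, 141 and 142 FPKM against 44.4, 44.5 and 42.5 (1.73 ± 0.10, adjusted p = 1.2e-09), and the target Hes1 at 50.5, 65.3 and 54.9 against 29.9, 25.8 and 24.4 (1.06 ± 0.15). Dll4 (28.8, 26.0 and 23.2 against 6.14, 7.03 and 6.28) and Notch4 (38.3, 39.5 and 35.0 against 13.5, 13.4 and 10.8), both known from vessels, were also higher. Genes of the pathway called lower include Dll1 (1.4, 1.27 and 1.66 against 32.2, 33.9 and 33.0, -3.80 ± 0.16; -2.33 with reference transcripts alone), Dll3 (-3.77 ± 0.14), Hes5 (2.25, 0.93 and 1 against 22.6, 20.8 and 22.1, -3.30 ± 0.24) and Heyl (-3.22).

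Among epithelial and adhesion genes, more were higher than lower. In the list for cell shape and junctions of invagination, 18 of 30 were higher and 5 lower, with a median of 0.31. Cdh1 (chr8:106603351-106670246), E-cadherin, was at 255, 264 and 292 FPKM in lens and 24.3, 23.4 and 22.7 in whole embryo (3.47 ± 0.10, adjusted p = 7.46e-13). The ephrin receptor Epha2, linked to inherited cataract, was at 43.2, 39.9 and 34.9 against 9.04, 9.46 and 8.47 (2.01 ± 0.10), and the ephrin ligand Efnb2 at 310.1, 309 and 318 against 112, 98.7 and 104.95 (1.56 ± 0.07). Genes of the contractile and cytoskeletal machinery were among the lower ones, with small differences: the kinase Rock1 (-0.57) and the small GTPases Cdc42 (-0.30) and Rac1 (-0.24). The Rac1 call was lost without lens replicate 1 (-0.19) or 3 (-0.25) and without any 1 of the whole embryo libraries.

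Basement membrane genes, which build the lens capsule, were higher in 13 of 22 and lower in 2, with a median of 0.48. The list summed to 3240, 3526 and 4489 FPKM in the lens libraries, highest in replicate 3, and to 2469 to 2559 in whole embryo. Without lens replicate 3, 9 were higher and the median was 0.36; 9 were also higher with reference transcripts alone and with replicate 2 as the single lens library. The count of lower genes was 1 without lens replicate 1 or 2 or whole embryo replicate 2 or 3. The part of the mesenchymal transcripts of replicate 3 in these values was not tested. Itga3, a laminin receptor subunit, was at 140.2, 142 and 174 FPKM against 22.6, 21.2 and 23.1 (2.71 ± 0.11), Col4a6 at 51.3, 48.0 and 56.2 against 13.8, 17.6 and 13.4 (1.74 ± 0.17) and the laminin chain Lamb1 at 285, 301 and 343 against 107, 117 and 112 (1.46 ± 0.10). Of 19 surface ectoderm genes, 13 were higher and 4 lower. Epcam was at 85.0, 84.2 and 98.0 against 19.1, 17.8 and 19.2 (2.19 ± 0.38), and the keratins of simple epithelia Krt8 and Krt18 were at 94.8, 98.3 and 134 against 30.2, 33.0 and 29.4 and 85.4, 98.1 and 121 against 22.9, 26.7 and 22.9. The keratins of stratifying epidermis were near 0 in lens: Krt5 at 0.87, 0.24 and 0.22 against 12.1, 11.3 and 13.2 (-3.22 ± 0.27) and Krt14 at 1.01, 0.14 and 0.45 against 3.76, 3.91 and 4.45. With a pseudocount of 0.1, 6 rather than 13 surface ectoderm genes were called higher.

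Markers of other placodes and of mesenchyme were mostly lower. Of 17 genes of other cranial placodes, 11 were lower and 2 higher, with a median of -1.57. Pax3, of the trigeminal placode, neural crest and neural tube, was at 0.77, 0.38 and 1.24 FPKM against 36.9, 37.8 and 32.6 (-4.38 ± 0.15), and Neurod1 and Neurog1, of sensory neurons, were at 0.32 or less in each lens library. The 2 higher genes were Foxi3 (9.3, 17.0 and 12.4 against 0.31, 0.28 and 0.25, 3.40 ± 0.36), a forkhead factor of early placodal ectoderm, and Dlx3 (1.11). In the periocular mesenchyme list 11 of 19 were lower and 1 higher. The list summed to 558.2, 562.4 and 3088 FPKM in the lens libraries and to 1976 to 2169 in whole embryo. By this sum, lens replicate 3 lay above whole embryo and replicates 1 and 2 below it. Without lens replicate 1 or 2, 9 were called lower, and without lens replicate 3, 14 were. Prrx1, of limb and facial mesenchyme, was at 41.0, 27.6 and 23.2 against 193, 182 and 191 (-2.62 ± 0.32).

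Vessel and macrophage markers were higher in the lens samples than in whole embryo. Shares higher were 66.7% for endothelial and 85.7% for macrophage genes, against 24.6% of all genes. Shares lower were 8.3% and 7.1%, against 31.2%. Of 12 endothelial genes 8 were higher and 1 lower (median 1.08), with sums of 630 to 709 FPKM in the lens libraries and 349 to 355 in whole embryo. Pecam1 was at 86.7, 85.1 and 70.1 against 36.5, 35.0 and 39.1 (1.10 ± 0.33) and the VEGF receptor Flt1 at 54.6, 53.3 and 50.1 against 19.99, 20.8 and 21.8 (1.30 ± 0.33). Of 14 macrophage genes 12 were higher and 1 lower (median 1.53), with sums of 172 to 203 FPKM against 59.1 to 64.2. The fractalkine receptor Cx3cr1, which binds the product of Cx3cl1, was at 33.0, 28.0 and 30.9 against 5.07, 5.91 and 6.1 (2.24 ± 0.28), and the CSF1 receptor Csf1r at 32.5, 38.4 and 40.5 against 7.26, 8.29 and 7.44 (2.13 ± 0.31). With replicate 2 as the single lens library, 4 endothelial genes were called higher, and the calls of Pecam1 (1.19) and Flt1 (1.31) were lost. The genes called lower were Tek (-0.72) among endothelial genes and Pf4 (-0.85) among macrophage genes. Both lists were above whole embryo in each of the 3 lens libraries, and their part in the Dll4 and Notch4 values was not tested.

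Genes of neurons, muscle and the trunk were low in the lens samples. A gene under 1 FPKM in every lens library of the series, at any stage, was tested only if all 3 whole embryo libraries reached 1 FPKM. For such a gene, the direction was set by that filter. The 14 neuronal genes tested were called lower, with a median of -4.77 and sums of 53.5 to 57.0 FPKM against 1153 to 1250. Dcx, a microtubule protein of migrating neurons, was at 1.16, 0.82 and 0.78 FPKM in lens and 171, 155 and 171 in whole embryo (-6.45 ± 0.20, adjusted p = 1.94e-12). The neurofilament gene Nefm was at 5.45, 1.85 and 1.18 against 234, 205 and 213 (-5.99 ± 0.43). Map2, also a microtubule protein, gave the highest mean lens level of the list, at 17.4, 17.1 and 27.6 against 175, 171 and 183 (-3.07 ± 0.21; -2.40 with reference transcripts alone). The 14 neural progenitor genes were also called lower (median -3.13), among them Fabp7 at 3.48, 0.76 and 0.68 against 78.7, 78.5 and 84.0. The 19 cardiac and skeletal muscle genes were called lower: cardiac actin Actc1 at 2.7, 0.9 and 0.95 against 209.8, 219 and 210.2 (-6.48 ± 0.24), and the ventricular light chain Myl2 listed at 0 in the 3 lens libraries and at 67.4, 65.1 and 66.5 in whole embryo.

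Hox genes mark position along the trunk and hindbrain and are silent in the front of the head. All 37 tested were lower, against 31.2% of all genes, and each had lens libraries below whole embryo. For any Hox gene under 1 FPKM in every lens library of the series, at any stage, the filter itself set this direction. The sum of the 37 genes was 2.27, 1.89 and 9.79 FPKM in lens and 631 to 662 in whole embryo. The median log2 fold change was -3.47, or -3.71 without the 13 genes listed at 0 in the 3 lens libraries. Hoxd4 (chr2:74711929-74729160) read 0, 0.11 and 0.07 against 76.2, 105.09 and 82.3 (-6.38 ± 0.13), Hoxb9 0, 0.09 and 0.11 against 74.5, 68.5 and 73.6, and Hoxa9 was listed at 0 in lens against 41.4, 42.2 and 33.5 in whole embryo. Lens replicate 3 held most of what was present, with Hoxc8 at 0.09, 0 and 4.09 in lens against 17.4, 19.9 and 18.9.

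**Figure D3:**
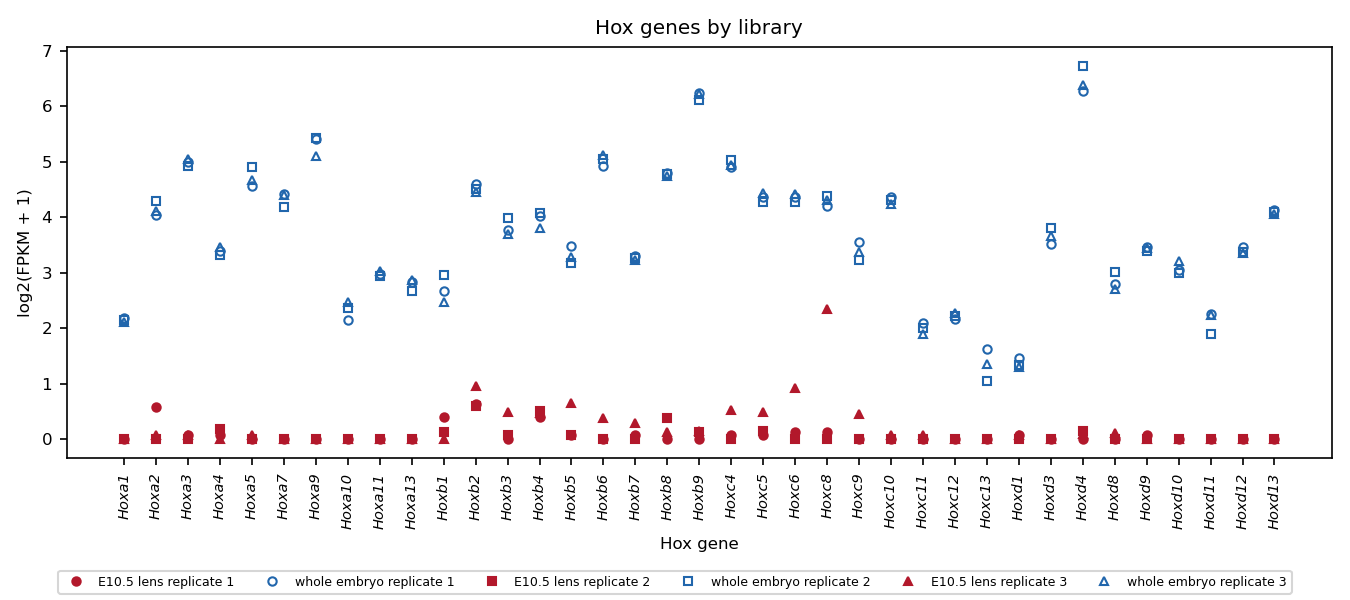
Level of each of the 37 Hox genes tested in each library, as log2(FPKM + 1), with filled red symbols for E10.5 lens and open blue symbols for whole embryo, ordered by cluster. Lens libraries lie at or near 0 throughout; the highest lens value is that of Hoxc8 in replicate 3, at 4.09 FPKM.

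Endoderm-type transcripts appeared in lens replicates 1 and 3 and hardly in replicate 2. Of 22 genes listed for proteins secreted by liver and visceral endoderm, the absorptive outer layer of the yolk sac, 17 were tested. The 17 summed to 638.1, 28.5 and 1198 FPKM in the lens libraries and to 330.4 to 382.4 in whole embryo. Afp (chr5:90490737-90508907), alpha-fetoprotein, read 339.6, 6.91 and 625 in lens and 181, 184 and 200.04 in whole embryo. The apolipoprotein Apoa1 read 71.6, 2.84 and 128 against 5.21, 5.71 and 7.18, and Apob 21.6, 0.47 and 52.5 against 9.79, 10.52 and 10.4. The thyroxine carrier Ttr read 47.7, 2.41 and 83.0 against 8.49, 10.3 and 11.1, and the retinol carrier Rbp4 34.4, 2.55 and 53.2 against 10.1, 8.95 and 10.2. For each of these 5 genes, replicates 1 and 3 lay above the 3 whole embryo libraries and replicate 2 below them.

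Of 14 genes listed for uptake and lipid handling by yolk sac visceral endoderm, 7 were tested. Of these, 4 were higher and 3 lower, with a median of 1.22. Amn, Rhox5, Soat2, Fabp1, Slc2a2, Slc13a4 and Entpd2 were listed but absent from the deposited table or removed by the filter. Cubn, the receptor cubilin with which yolk sac endoderm takes up protein, read 17.5, 1.04 and 47.0 in lens against 1.6, 1.8 and 1.39. S100g, a calcium-binding protein, read 17.0, 1.18 and 27.5 in lens and 0, 0 and 0.08 in whole embryo, so this gene was nearly confined to lens replicates 1 and 3 among the 6 libraries. Spink1, a trypsin inhibitor, read 7.33, 1.8 and 7.58 against 0.19, 0.12 and 0.12, and the fourth higher gene, the uptake receptor Lrp2, 33.7, 34.0 and 67.1 against 14.8, 20.04 and 18.5 (1.22; not called without lens replicate 3, 0.90). The lower genes were the endocytic adaptor Dab2 (38.0, 37.7 and 50.6 against 68.8, 73.5 and 69.4, -0.74), Mttp, which loads lipid onto Apob (6.02, 3.52 and 12.2 against 9.99, 11.4 and 12.3, -0.71), and the transcriptional coactivator Cited1 (-0.85). The list gave 2 higher genes without lens replicate 3 and 0 lower genes without lens replicate 2, and 1 lower gene without lens replicate 1 or without any 1 of the whole embryo libraries. With replicate 2 as the single lens library, 2 were higher and 2 lower, with a median of -0.35.

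Other members of the secreted protein list were called lower. Alb (chr5:90460897-90476602), albumin, read 0.35, 0 and 0.12 in lens and 33.7, 38.9 and 44.6 in whole embryo (-5.12 ± 0.16, adjusted p = 1.27e-12), and Serpina6, corticosteroid-binding globulin, 0.05, 0 and 0 against 16.0, 18.6 and 21.7. Vtn (0.5, 0.4 and 2.19 against 16.6, 16.8 and 15.3) and Ambp (0.73, 0.05 and 2.36 against 8.86, 9.42 and 10.9) were low in lens as well. The ratio of Afp to Alb was therefore unlike that of whole embryo in replicates 1 and 3. No ratio could be formed for replicate 2, with Afp at 6.91 FPKM and Alb listed at 0.

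Endoderm transcription factors were mostly low. Of 15 listed, 9 were tested, and of these 6 were lower and 1 higher. Foxa1 read 0.27, 0 and 0.06 in lens against 6.59, 5.39 and 5.56 and Foxa2 0.14, 0 and 0 against 3.63, 3.75 and 2.94, both called lower. Gata4 (-2.78), Gata6 (-3.02), Onecut1 (-3.65) and Nkx2-1 (-2.73) were called lower too. Hnf4a, an activator of apolipoprotein genes in liver and visceral endoderm, read 1.52, 0.04 and 5.26 against 3.23, 2.63 and 3.16 and followed the order of Afp across the lens libraries. Sox17, shared by endoderm and endothelium, read 5.85, 5.96 and 3.65 against 2.25, 2.41 and 2.38 (0.86), a call that was lost without lens replicate 1 (0.77) or 2 (0.75).

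Calls for the endoderm-type genes rested on which lens libraries were used. With the 3 lens libraries, 2 of the 17 secreted protein genes were called higher (Apoa1 and Apoc2) and 4 lower (Alb, Serpina6, Vtn and Ambp), and the median was 0.47. Without lens replicate 2, 13 were higher and 4 lower, and the median was 1.63. Without replicate 3, 1 was higher and 5 lower, with a median of -0.35. With replicate 2 as the single lens library, 0 were higher and 16 lower, with a median of -1.98; that fit assumes that this library varies like the other groups. Afp moved from -0.67 (not called) to 1.29 (higher) without replicate 2 and to -4.58 (lower) with replicate 2 alone. Apoa1 moved from 2.24 to 3.79 and to -0.86, Cubn from 2.23 to 3.52 and to -0.35, and Apoc2 from 2.18 to 3.21 and to 0.11. The Apoa1 call was also lost without lens replicate 1 (1.67) or 3 (1.26) and without whole embryo replicate 1 (2.15), 2 (2.21) or 3 (2.35), and that of Cubn without lens replicate 1 (1.93) or 3 (1.24). Leaving out replicates 1 and 3 changed the totals of all genes to 2818 higher and 3462 lower.

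**Figure D4:**
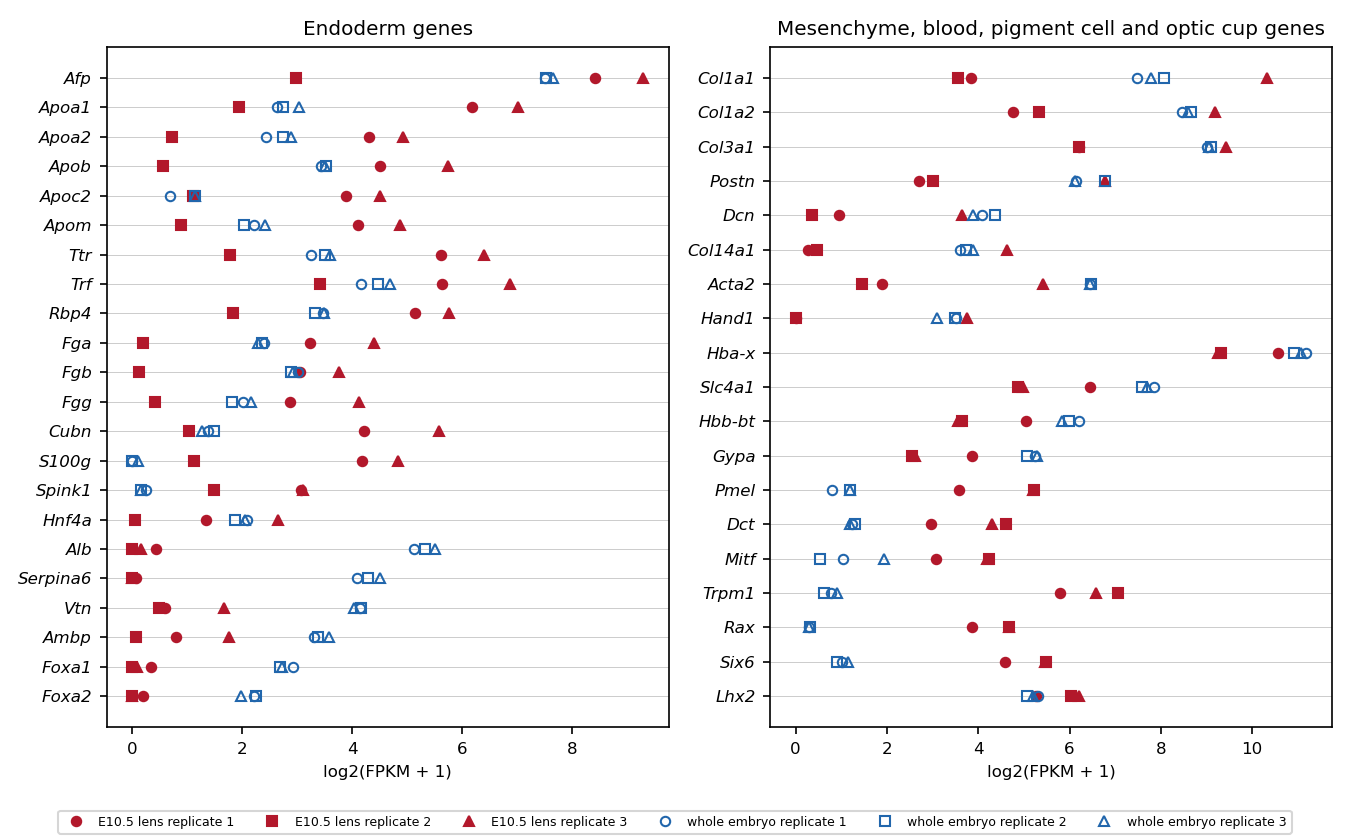
Level in each library, as log2(FPKM + 1), of endoderm-type genes (left) and of genes of mesenchyme, blood, pigment cells and optic cup (right), with filled red symbols for E10.5 lens and open blue symbols for whole embryo. Afp, apolipoproteins and Cubn in lens replicates 1 and 3 lie above whole embryo and in replicate 2 below it, except that Apoc2 in replicate 2 overlaps whole embryo; Alb lies near 0 in the 3 lens libraries, and Col1a1 is at 1273 FPKM in lens replicate 3 against 13.3 and 10.8 in replicates 1 and 2.

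Ranked without a test by the gap between the lower of replicates 1 and 3 and replicate 2, among genes at 10 FPKM or more in both, 16 genes had a gap of at least 2-fold and 12 of at least 4-fold on the log2(FPKM + 1) scale. The 15 with the widest gaps were Afp, Apoa1, Apob, Ttr, Stat6, Apoa2, Rbp4, Apom, Cubn, S100g, Apoc2, Trf, Gtdc1, Itga1 and Usp32. Stat6, a cytokine signal transducer, read 12.6, 0 and 12.7 in lens and 12.6, 12.0 and 13.2 in whole embryo, so there replicate 2 stood apart and replicates 1 and 3 were at the whole embryo level.

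Lens replicate 3 stood apart for mesenchymal genes. Col1a1 (chr11:94936224-94953042), fibrillar collagen, read 13.3, 10.8 and 1273 FPKM in lens and 177, 269 and 219 in whole embryo. Col1a2 read 26.3, 39.0 and 580.3 against 354, 402 and 384, Postn, periostin, 5.56, 7.09 and 108 against 69.9, 109 and 68.3, and Col14a1 0.21, 0.38 and 23.7 against 11.2, 12.3 and 13.8. Hand1, a factor of heart, lateral and extraembryonic mesoderm, read 0, 0 and 12.4 against 10.3, 10.3 and 7.57, and Upk3b, a gene of mesothelium, 1.1, 0 and 16.9 against 8.08, 9.58 and 8.85. Replicate 3 was above the highest whole embryo library for Col1a1, Col1a2, Col14a1, Hand1 and Upk3b. It had 37 genes at 10 FPKM or more with a gap of at least 2-fold above the next lens library, of which 19 had a gap of at least 4-fold; replicate 1 had 19 and 0, and replicate 2 had 1 and 0. Col1a1 was not called (-1.87) and was called lower without replicate 3 (-4.08), and the fold change of Col1a2 moved from -2.15 to -3.53. The Col1a2 call was lost without lens replicate 1 (-1.32) or 2 (-1.60) and without whole embryo replicate 1 (-2.20), 2 (-2.11) or 3 (-2.14). Dcn, a small proteoglycan of connective tissue, read 0.92, 0.28 and 11.4 against 16.0, 19.5 and 13.8, with a fold change of -2.47 that was -3.46 without replicate 3 and -1.82 without replicate 2. The Postn call (-2.18) was lost without lens replicate 1 (-1.46) or 2 (-1.61) or whole embryo replicate 2 (-1.97), and was -3.48 without lens replicate 3.

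Lens replicate 1 stood apart for red blood cell genes. The 14 erythroid genes summed to 5132, 2334 and 2241 FPKM in lens and 7626 to 9756 in whole embryo, and 13 were called lower (median -1.68). The embryonic globin Hbb-y read 1884, 875 and 811 against 4464, 3528 and 3799 (-1.83 ± 0.38) and the anion exchanger Slc4a1 86.4, 28.3 and 30.6 against 231, 191 and 205 (-2.28 ± 0.51). Hba-a2 was called higher (81.1, 36.1 and 37.9 against 3.69, 3.27 and 3.98) while its near-identical neighbour Hba-a1 was lower (223, 95.2 and 114 against 398, 296 and 345), so their separate values are uncertain. Mitochondrially encoded genes took 3.69%, 2.18% and 2.08% of the FPKM of the lens libraries and 1.57% to 2.62% in whole embryo.

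Cytosolic ribosomal protein genes were higher almost throughout: 77 of 80 tested, and 47 of them at least 2-fold, with a median of 1.07. They made up 6.68%, 7.53% and 7.0% of the FPKM in lens and 3.86%, 3.55% and 3.63% in whole embryo. Rps2 (chr17:24718116-24721929) read 989, 1148 and 1096 against 292, 232 and 247 (2.07 ± 0.10) and Rpl29 344, 395 and 359 against 82.3, 87.7 and 69.9 (2.18 ± 0.09). Glucose uptake and glycolysis genes were higher in 13 of 20 and lower in 3 (median 0.68). Eno1, enolase, read 1305, 1597 and 1501 against 398, 337 and 363 (2.00 ± 0.12; 0.79 with reference transcripts alone), the glucose transporter Slc2a1 369, 414 and 438 against 137, 130.0 and 130.3 (1.61 ± 0.09), and Gapdh (chr6:125161715-125166467) 1622, 1757 and 1803 against 658, 598 and 626 (1.46 ± 0.12).

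Processed pseudogenes, reverse-transcribed copies of messenger RNAs, went the opposite way. Of 283 tested, 260 (91.9%) were lower and 10 higher, with a median of -1.97. Of 12775 protein-coding genes, 3850 (30.1%) were lower, with a median of -0.03. A pseudogene under 1 FPKM in every lens library of the series, at any stage, was tested only if all 3 whole embryo libraries reached 1 FPKM. That filter can raise the share called lower, and how many pseudogenes entered in this way was not counted. The processed pseudogenes summed to 217.0 to 296.9 FPKM in the E10.5 lens libraries, 2998 to 3321 in whole embryo and 552.7 to 744.8 in the libraries of later lens. The gene with the lowest fold change of the rule was Gm13394 (chr2:28933610-28934609), a copy of Gapdh: 0, 0.05 and 0 FPKM in lens and 156, 139 and 145 in whole embryo (-7.18 ± 0.11). Aligned without gaps over 1000 bases of the Gapdh coding sequence, the copy differed at 1 base, A346C (Gapdh base first, counted from the A of the start codon). The stretch around it, bases 316 to 375 of the longest open reading frame of the GENCODE vM21 transcript, is given 5′ to 3′ with the differing base in capitals, since a read that misses this base has the same letters in both over the aligned bases.
Gapdh: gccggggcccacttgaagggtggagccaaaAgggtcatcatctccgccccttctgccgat
Gm13394: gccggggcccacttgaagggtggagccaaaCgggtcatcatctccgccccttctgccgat

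In the table, 262 pseudogenes matched a tested coding gene at 95% identity or more over at least 80% of their length. Of these, 247 were lower, and for 193 of the 247 the coding gene was called higher. The filter described above bears on these counts too. Rps2-ps13 was listed at 0 in the 3 lens libraries and read 104, 79.1 and 77.8 in whole embryo, with Rps2 higher. Rpsa-ps10 read 0.92, 0.95 and 1.63 against 168, 133 and 180.4, with Rpsa higher (1.04), and Gm10182, a copy of the nucleosome-binding gene Hmgn2, 0.37, 0.24 and 0.45 against a whole embryo mean of 97.0 ± 3.95 (SD, n = 3), with Hmgn2 higher (1.74). Reads of such pairs cannot be told apart except at the few bases that differ, so the division between copies is uncertain in both groups. Coding genes with 5 or more such copies in the annotation had a median of 1.003 (77 genes, 83.1% higher), those with 1 to 4 of 0.18 (749 genes, 45.4% higher) and those with none of -0.04 (11949 genes, 23.2% higher). Without ribosomal protein genes, the 36 genes with 5 or more copies had a median of 0.39 and 63.9% were higher. Expression level rose with the number of copies. The median whole embryo level was 286.3 FPKM with 5 or more copies, 54.9 with 1 to 4 and 23.1 with none. It was 171.0 for the 36 genes. The part of expression level in these fold changes was not tested. When pseudogene values were added to the coding gene, an alternative chosen after seeing the data, the ribosomal median was 0.94, Rps2 was at 1.43 and Hmgn2 at 1.12. The part of read assignment in the ribosomal, Gapdh and Hspa8 results was not tested further.

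**Figure D5:**
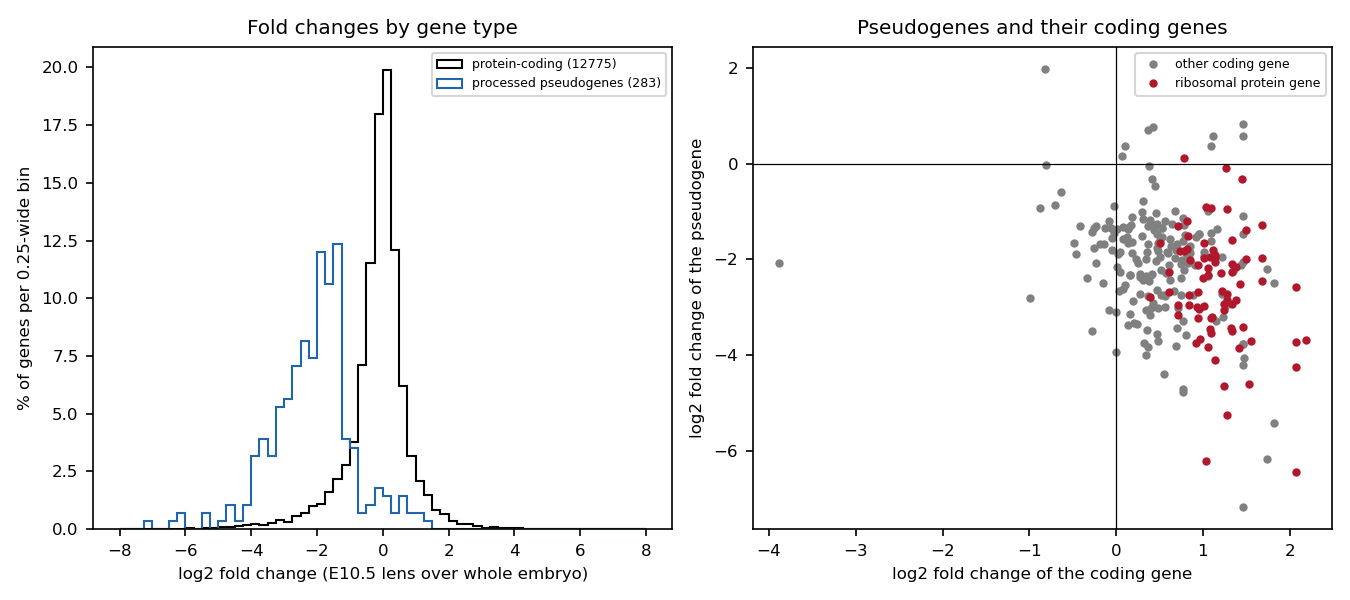
Left, distribution of log2 fold changes (E10.5 lens over whole embryo) of protein-coding genes and processed pseudogenes, as a percentage of genes per bin; right, fold change of each of 262 pseudogenes against that of its closest coding gene, with ribosomal protein genes in red. Pseudogenes centre at -1.97 and coding genes near 0, and most pairs lie at the lower right, with the coding gene higher and the pseudogene lower. Pseudogenes under 1 FPKM in every lens library of the series entered only through the whole embryo libraries.

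Cell cycle genes differed little. Of 30, 6 were higher and 3 lower, with a median of 0.04, which changed sign after rescaling to equal totals without crystallins (-0.01), under quantile normalization (-0.03) and without lens replicate 2 (-0.01), where 3 were higher. The replication clamp Pcna was at 217, 247 and 251 FPKM against 149, 131 and 137 (0.77 ± 0.12). Of 10 genes for CDK inhibitors and pocket proteins, 7 were lower and 0 higher: Cdkn1a at 2.43, 1.99 and 2.3 against 9.72, 11.2 and 10.2 (-1.81 ± 0.26), Rb1 at 18.6, 19.6 and 17.4 against 49.1, 50.5 and 48.3 (-1.37 ± 0.09) and Cdkn1c, p57, at 134, 133 and 149 against 342, 299.5 and 321 (-1.20 ± 0.12). Of 45 nuclear-encoded respiratory chain genes, 21 were higher and 4 lower (median 0.20), led by Ndufa1 (1.22); 1 was lower without lens replicate 1 or whole embryo replicate 1, and 2 without whole embryo replicate 3.

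Immediate early genes, which respond within minutes to stress and handling, were higher in part. In the list of 18 immediate early and heat shock genes, 8 were higher (44.4%) and 3 lower (16.7%), against 24.6% and 31.2% of all genes. Fos was at 8.07, 6.19 and 14.2 FPKM against 0.74, 1.08 and 0.62 (2.47 ± 0.56), Egr1 at 13.2, 22.1 and 24.0 against 4.17, 4.15 and 3.4 (2.05 ± 0.41), and the chaperone Hspa8 at 1868, 2262 and 2219 against 676, 558 and 560.1 (1.82 ± 0.13), while Btg2 was at 13.4, 13.0 and 14.1 against 45.1, 39.4 and 45.3 (-1.61 ± 0.08). Of 13 targets of hypoxia-inducible factors, 5 were higher (38.5%) and 1 lower (7.7%), with a median of 0.26. P4ha1 was at 1.15 and Vegfa at 0.56.

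Genes of inherited eye malformation were often higher. Of 31 genes linked to anophthalmia, microphthalmia or anterior segment disease, 17 were higher (54.8%) and 4 lower (12.9%), with a median of 0.83. Over all genes, 24.6% were higher and 31.2% lower. The list shares Foxe3, Pitx3, Aldh1a3, Six3 and other members with the lists above. Its lower members were Shh (0, 0.19 and 0 FPKM against 10.6, 9.22 and 8.66), the matrix protein gene Smoc1 (7.5, 4.26 and 3.76 against 38.7, 33.7 and 37.4, -2.65 ± 0.32), the hedgehog receptor Ptch1 (39.0, 38.0 and 52.3 against 119.5, 123 and 118, -1.48 ± 0.13) and Hccs (-0.72), which attaches haem to cytochrome c.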

How the data were processed

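The authors deposited 1 table of FPKM values with a row for each transcript. The submitters' processing notes name Cuffnorm, Cufflinks, TopHat2 2.0.9 and Trimmomatic as tools and mm10 as the build; depth and the normalization setting are not given in the sources used here. The deposited table held 48306 transcripts, each at 1 FPKM or more in at least 2 libraries. Values were summed per symbol without 172 transcripts of class x (opposite-strand overlaps). Of 14615 symbols, 80 were removed by a filter (at least 1 FPKM in at least 3 of 15 libraries), and no test was made for Cryaa, Cryba1 or Nufip2, each listed at 0 in a later lens library beside a replicate of 50 FPKM or more. FPKM sums per E10.5 lens or whole embryo library ran from 707562 to 767151.

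Values were tested as log2(FPKM + 1) with limma 3.58.1 (R 4.3.3), with a mean per group, all 15 libraries in 1 fit (10 residual degrees of freedom) and a trended prior. No label ties a replicate number to a shared litter or day, and same-numbered libraries of the 2 groups correlated at -0.0421, -0.033 and 0.041 in their deviations from the group means, so no replicate block was used. On simulated data with 200 changed genes of 14532, 68% of 1.5-fold, 86% of 2-fold and 100% of 4-fold increases and 84% of 2-fold decreases were recovered, with 10 false calls. The changed genes were drawn above an expression floor in whole embryo, and in the data 55.7% of genes were called. The recovery shares therefore do not describe genes near 0 or a comparison with so many changes.

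Genes were named by a rule: the 15 highest and 15 lowest fold changes among called genes whose libraries did not overlap and whose higher group averaged 10 FPKM or more, up to 4 called members from each end of each list, every member of the lists for lens factors, crystallins, retinoic acid and endoderm, and the genes with the largest gaps between lens libraries. Atoh7, Axin2, Bmp4, Bmpr1a, Bmpr2, Ctnnb1, Dkk1, Grem1, Hba-a1, Hbb-y, Heyl, Hmgn2, Hoxc8, Lef1, Map2, Nkd1, Pecam1, Rpsa, Tyr, Wif1, Wnt5b and Wnt7b fall outside this rule and were chosen after their values were seen. Some genes that the rule names are counted in their lists but not reported here by name. The comparison, lists and rule were chosen with earlier results of these data known. Pseudogenes were matched to coding transcripts with minimap2 2.31; coordinates are from GENCODE vM21 and promoters from RefSeq (GRCm38.p6), which has an entry for 15 of the 16 crystallins. Alternatives covered the pseudocount (0.1), the filter, scaling, the fit, left-out libraries and transcript classes.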

Additional observations from a re-analysis of the deposited data

How the results depend on the processing

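The counts of 3568 higher, 4527 lower, 942 at least 2-fold higher and 1979 at least 2-fold lower genes stayed within 1.5 times under the alternatives run, except that quantile normalization gave 1528 genes at least 2-fold higher. Leaving out 1 library at a time gave 3016 to 3469 higher and 4015 to 4382 lower genes. It gave 932 to 958 genes at least 2-fold higher and 1915 to 2037 at least 2-fold lower. With the replicate number as a block, 3536 genes were higher and 4522 lower, 941 and 1985 with the 2-fold minimum; of the genes named in the text, the block ended the call of Bambi (adjusted p = 0.0574). Of 214 tested genes named in the text, 157 kept their call (higher, lower or not called) under every alternative. Directions changed for 12 values of named genes that were called with the chosen settings or with the alternative. With replicate 2 as the single lens library, fold changes turned negative for Apoa1 (-0.86), Apoa2 (-1.97), Apob (-2.93), Apom (-1.33), Cubn (-0.35), Rbp4 (-1.59), Trf (-1.02) and Ttr (-1.68). Leaving out 1 library at a time moved Afp between -1.86 (without lens replicate 3) and 1.29 (without lens replicate 2). With reference transcripts alone, Bmpr1a (1.35), Eya1 (1.32) and Zeb2 (0.15) were positive; the cause was not tested. The sign of Sox2 (-0.42) also turned with reference transcripts alone, and values of Apoa2, Apob, Ctnnb1 and Gtdc1 did under other alternatives, none of these called in either fit. Fold changes of named genes moved by over 1.5 times for 72 genes with a pseudocount of 0.1, 17 under quantile normalization, 22 with reference transcripts alone and 37 without lens replicates 1 and 3. Leaving out lens replicate 1, 2 or 3 moved 9, 21 and 23 genes, and whole embryo replicate 1 moved 1. Depth is unknown for these FPKM values, so genes near 0 cannot be called absent.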

Other observations

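A few library-specific genes belonged to none of the lists. Lens replicate 2 was the highest lens library for Gm28635 (3.48, 23.0 and 7.66 FPKM in lens, 0, 2.52 and 3.92 in whole embryo) and for Ccpg1, a gene of endoplasmic reticulum turnover (6.94, 15.2 and 7.39 against 3.7, 5.67 and 7.65). In lens replicate 3, Creb3l1, an activator of collagen genes, read 0.82, 0.99 and 22.4 in lens and 5.7, 6.43 and 6.3 in whole embryo, and the smooth muscle actin Acta2 2.7, 1.75 and 41.7 against 85.9, 87.1 and 85.7. Red cell genes outside the erythroid list followed lens replicate 1: Ermap read 18.3, 5.67 and 5.71 in lens against 37.4, 31.4 and 31.0, and Kel, a blood group protein gene, 13.9, 3.58 and 4.77 against 24.1, 22.3 and 23.2. These values were picked by the size of the gap and carry no test.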
